A study of Mus musculus with 12 samples.

Results

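The nuclear-encoded subunits of the mitochondrial respiratory chain and of ATP synthase were followed across 4 mouse lung adenocarcinoma cell lines. A gene was taken as a member when its single annotated symbol began with Nduf and a letter of a subunit class (complex I), was Sdha, Sdhb, Sdhc or Sdhd (complex II), or began with Uqcr (complex III), Cox4 to Cox8 (complex IV) or Atp5 (complex V). This gave 81 members of 18193 genes measured, with 35 in complex I, 4 in complex II, 8 in complex III, 17 in complex IV and 17 in complex V. KC1, KC2 and KC3 are described by the submitters as highly metastatic, and KC4 as poorly metastatic. All 4 lines carried the K-rasLA1 allele in the heterozygous state and lacked both copies of Cdkn1a, on a strain background written as 127s, and grew in RPMI 1640 with 10% FBS. Each line was measured on 3 one-colour Affymetrix arrays said to be biological replicates, and poorly metastatic behaviour was represented by 1 line, so metastatic class and line cannot be told apart in any comparison with KC4. The labels speak of several tumours and mice without tying a line to either, and where no separate cultures are described, a p-value measures only the spread between the arrays.

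The respiratory chain passes electrons from NADH (complex I) and succinate (complex II) through coenzyme Q to complex III, and then by cytochrome c to complex IV, which reduces oxygen. Complexes I, III and IV pump protons across the inner membrane, and complex V, the ATP synthase, uses the gradient to make ATP. Each complex except complex II also holds subunits encoded by mitochondrial DNA, so its assembly depends on both genomes. Several nuclear subunits of complex IV exist in a general form and in forms found mainly in heart and muscle, in testis or in lung.

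The deposited table gave a linear intensity for 45101 probe sets. Signals under 16 were set to 16, and the brightest probe set with 1 annotated gene stood for its gene, so that every level below is a log2 signal with a lowest possible value of 4. A level describes 1 probe set in different lines, and levels of different genes are not set against each other. RNA came from whole cultures, in which fewer cells that express a gene and less of its RNA per cell cannot be told apart. The median signal of an array was 114 to 120 for KC1, 112 to 128 for KC2, 94.5 to 112 for KC3 and 107 to 124 for KC4. The control probe set for the 5′ part of 18S ribosomal RNA read 605 ± 72 for KC1, 451 ± 86.8 for KC2, 414 ± 39 for KC3 and 3310 ± 935 for KC4 (SD, n = 3 each), so it moved with every comparison with KC4, and its part in those results was not tested. The epithelial markers matched the label: 7 of 7, among them Epcam, Cdh1 and Krt8, were above the all-gene median on every array. The lung lineage markers were mixed: 0 of 8 were above that median on every array and Napsa was at the floor on all 12, whereas Sftpd averaged 8.86, 10.32, 6.75 and 7.27 and Foxa2 8.88, 6.68, 7.57 and 9.03 in KC1, KC2, KC3 and KC4. One Cdkn1a probe set averaged 7800, 5900, 6720 and 4360 in KC1, KC2, KC3 and KC4 and the other stayed under 16 in all of them, and the sources do not give the deleted part of the gene.

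Most of the subunits were bright on these arrays and differed little between lines. The mean level over the 12 arrays was above the median of all genes (7.8) for 73 of the 81 members and above the upper quartile (9.94) for 70. The range of the 4 line means had a median of 0.41 over the members and 0.64 over all genes. A range of at least 1, or 2-fold in signal, was found for 5 of 81 members (6.17%), against 24.9% of all genes. Among genes above the upper quartile the shares were 3 of 70 members (4.29%) and 19.7% of 4548 genes. By complex, the median range was 0.4 in complex I, 0.48 in complex II, 0.46 in complex III, 0.44 in complex IV and 0.37 in complex V.

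Small differences between the lines were nevertheless resolved for many subunits. The moderated F test of limma over the 4 lines, with Benjamini-Hochberg adjustment over all 18193 genes, had an adjusted p under 0.05 for 51 of 81 members (background 49.6% of all genes). These were 25 of 35 in complex I, 3 of 4 in complex II, 5 of 8 in complex III, 9 of 17 in complex IV and 9 of 17 in complex V. Among the 70 members above the upper quartile of level 49 passed, against 84.8% of the genes at such levels. The count over all members fell to 27 when each array was centred on its median, the scaling that moved these small differences most. The share of all genes that passed under that scaling is not given here.

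**Figure D1:**
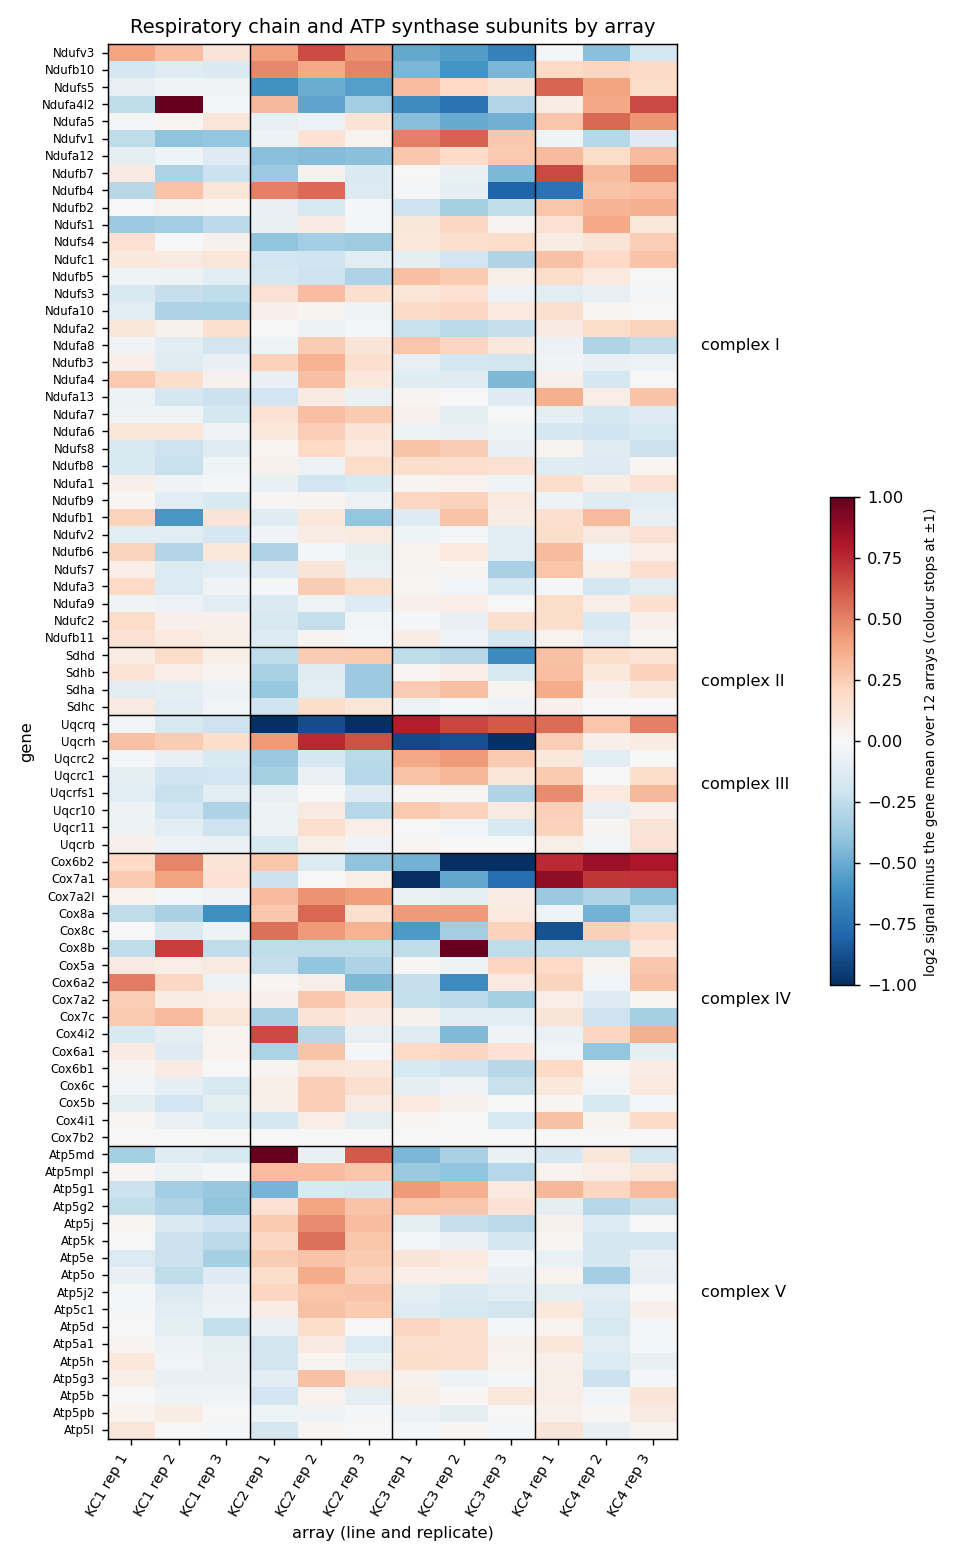
Log2 signal of each of the 81 members on each of the 12 arrays, drawn as the difference from the member's own mean, with members as rows grouped by complex and arrays as columns ordered KC1, KC2, KC3 and KC4. Most rows are pale, and the rows of Uqcrq, Uqcrh, Ndufv3, Cox6b2 and Cox7a1 hold the line means that lie at least 1 apart.

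The lines were set side by side in 7 comparisons: each pair of lines, and the mean of the 3 highly metastatic lines minus KC4. The comparisons share arrays, so their counts are not independent of each other. A member was called at an adjusted p under 0.05 and a log2 difference of at least 1. Of all members, 5 were called in at least 1 comparison: Uqcrq and Uqcrh of complex III, Ndufv3 of complex I, and Cox6b2 and Cox7a1 of complex IV. They are the 5 members (6.17%) with a range of line means of at least 1, found for 24.9% of all genes. The share of all genes called in at least 1 comparison was not taken. Between the highly metastatic lines and KC4, 0 members were higher (background 2.87%) and 2 were lower (background 2.57%). In KC1 minus KC4 the counts were 0 higher (background 3.49%) and 0 lower (background 2.05%), although 26 members had an unadjusted p under 0.05 in limma. In KC2 minus KC4, 1 member was lower (background 4.46%), and in KC3 minus KC4, 3 were lower (background 4.7%). In both of these comparisons 0 members were higher, where the backgrounds were 5.02% and 3.52%. In KC1 minus KC2 the counts were 0 higher (background 3.09%) and 0 lower (background 1.91%), although 37 members had an unadjusted p under 0.05 in limma. In KC1 minus KC3, 3 members were higher (background 5.33%) and 0 lower (background 2.89%). In KC2 minus KC3, 2 were higher (background 5.9%) and 1 was lower (background 4.94%). The class count was 1 without KC3 replicate 1 or without KC4 replicate 1, the KC2 minus KC4 count was 2 without KC2 replicate 1 or without KC4 replicate 3, and the KC1 minus KC2 count was 1 without KC2 replicate 2.

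**Figure D2:**
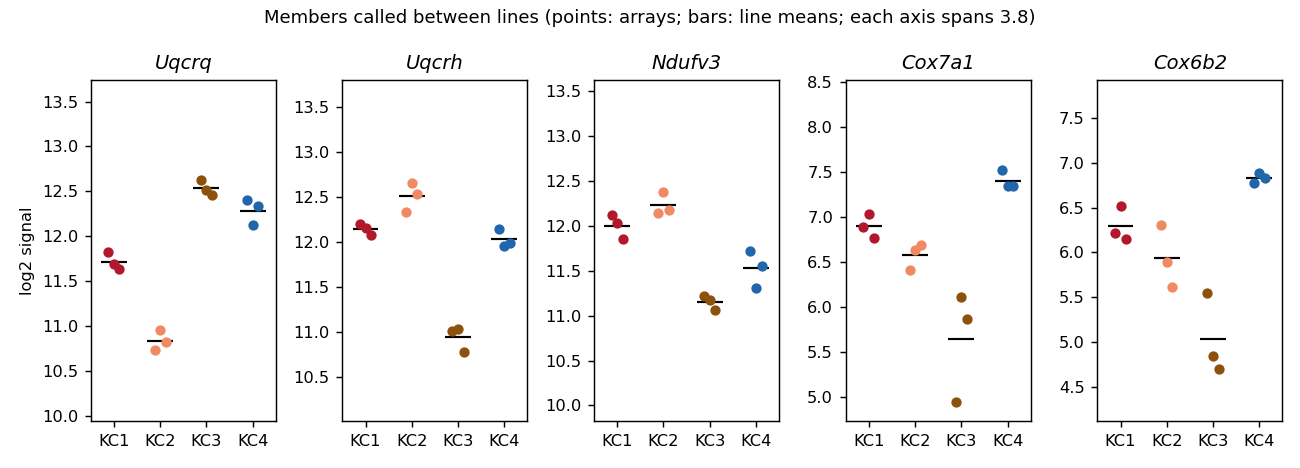
Log2 signal on each array for the 5 members called in at least 1 comparison, with lines in the order KC1, KC2, KC3 and KC4, points for single arrays and a bar for the mean of 3; all axes span the same number of log2 units. Uqcrq is low in KC2, Uqcrh and Ndufv3 are low in KC3, and Cox6b2 and Cox7a1 are highest in KC4 and lowest in KC3.

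Complex III held the widest differences among the bright subunits, and its small subunits Uqcrq and Uqcrh each marked another line. Uqcrq encodes a small subunit of complex III that lies near the coenzyme Q site. Its log2 signal was 11.82, 11.69 and 11.64 on the KC1 arrays, 10.73, 10.96 and 10.82 on KC2, 12.63, 12.51 and 12.46 on KC3, and 12.40, 12.12 and 12.34 on KC4. The 3 KC2 arrays lay below all others, the KC1 arrays lay between, and KC3 was above all arrays of the other lines. Uqcrq was 2.73-fold lower in KC2 than in KC4 (log2 difference -1.45, SE 0.0904, adjusted p = 2.47e-06) and 3.23-fold lower than in KC3 (-1.69, adjusted p = 8.25e-07). It also differed between KC1 and KC2 (0.88, adjusted p = 0.00012) and between KC1 and KC4 (-0.57, adjusted p = 0.00139), whereas KC3 minus KC4 missed the threshold (0.24, adjusted p = 0.0696). These values rest on 1 probe set. The 3 other Uqcrq probe sets were dim, with line means of 6.61 to 7.77, and none was called in the comparisons in which the bright one was. With the mean of all 4 probe sets the difference was -0.39 in KC2 minus KC4 and -0.45 in KC2 minus KC3.

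Uqcrh, the hinge protein of complex III that assists electron transfer from cytochrome c1 to cytochrome c, was low in KC3. Its log2 signal was 12.20, 12.16 and 12.08 on the KC1 arrays, 12.33, 12.66 and 12.54 on KC2, 11.01, 11.03 and 10.78 on KC3, and 12.15, 11.96 and 11.99 on KC4. The KC3 arrays lay below all other arrays with a wide gap, and the KC2 arrays lay above all of them. Uqcrh was 2.14-fold lower in KC3 than in KC4 (-1.1, SE 0.0981, adjusted p = 2.97e-05), and it was higher than in KC3 both in KC1 (1.21, adjusted p = 1.6e-05) and in KC2 (1.57, 2.98-fold, adjusted p = 2.14e-06). Its second probe set gave line means of 11.57, 12, 10.35 and 11.49 in KC1, KC2, KC3 and KC4 and was called the same way in the 3 comparisons. Centring each array on its median brought KC3 minus KC4 to -0.92 (adjusted p = 0.0027), below the minimum of 1.

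The other 6 complex III members stayed within a range of 0.63. Uqcrc1 and Uqcrc2, the large core proteins on the matrix side, differed in KC2 minus KC3 by -0.48 and -0.63 at an adjusted p under 0.05. Uqcrc2 (chosen after its values were seen) read 12.39, 12.33 and 12.26 on the KC1 arrays, 12.04, 12.25 and 12.14 on KC2, 12.80, 12.84 and 12.67 on KC3, and 12.52, 12.30 and 12.41 on KC4. The KC2 arrays lay below and the KC3 arrays above those of the other lines, the same order of these 2 lines as for Uqcrq and the reverse of that for Uqcrh. Uqcrfs1, the Rieske iron-sulfur protein, was lower than in KC4 in KC1 (-0.45), KC2 (-0.37) and KC3 (-0.39) at an adjusted p under 0.05. With arrays centred on their medians, the Uqcrfs1 differences all missed that threshold. Uqcrc1 (-0.72) and Uqcrc2 (-0.87) kept it in KC2 minus KC3 under that scaling, where 24.2% of all genes were lower. Uqcrb, a small subunit at the coenzyme Q site, had the narrowest range of the bright members of this complex, with 13.99 ± 0.07 for KC1, 13.98 ± 0.11 for KC2, 14.03 ± 0.01 for KC3 and 14.08 ± 0.08 for KC4 (SD, n = 3 each; F test adjusted p = 0.542).

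The widest complex I difference was that of Ndufv3, a small accessory subunit of the module that oxidises NADH. Its log2 signal was 12.12, 12.03 and 11.86 on the KC1 arrays, 12.14, 12.38 and 12.18 on KC2, 11.22, 11.17 and 11.06 on KC3, and 11.72, 11.31 and 11.55 on KC4. KC2 lay above and KC3 below all arrays of the other lines. The difference KC2 minus KC3 was 1.08 (2.12-fold, SE 0.114, adjusted p = 5.75e-05), and the other comparisons stayed under 1, among them KC1 minus KC3 (0.85, adjusted p = 0.000346), KC2 minus KC4 (0.7, adjusted p = 0.000996) and KC3 minus KC4 (-0.38, adjusted p = 0.03). With arrays centred on their medians KC2 minus KC3 was 0.84, below the minimum of 1, with an adjusted p of 0.00475.

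Other complex I subunits showed line patterns of under 2-fold, and those in the next sentences were chosen after their values were seen. Ndufb10, an accessory subunit of the membrane arm, read 10.43, 10.48 and 10.46 on the KC1 arrays, 11.08, 10.98 and 11.10 on KC2, 10.14, 10.00 and 10.14 on KC3, and 10.80, 10.82 and 10.79 on KC4. The 4 lines did not overlap at any point, and the gene passed in all 7 comparisons (5 of 7 under median centring), with the widest difference in KC2 minus KC3 (0.96, SE 0.0468, adjusted p = 4.99e-07). Ndufs5, an accessory subunit on the intermembrane side, read 9.98, 10.02 and 10.02 on the KC1 arrays, 9.45, 9.56 and 9.51 on KC2, 10.36, 10.26 and 10.19 on KC3, and 10.64, 10.46 and 10.24 on KC4. KC2 lay below all other arrays, and the difference KC2 minus KC4 was -0.94 (adjusted p = 3.71e-05). A second probe set listed for Ndufs5 and a pseudogene, and therefore left out, had line means of 11.1, 10.59, 11.22 and 11.34, with KC2 again lowest.

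Ndufa5, an accessory subunit of the matrix arm, read 10.69, 10.72 and 10.82 on the KC1 arrays, 10.62, 10.65 and 10.84 on KC2, 10.28, 10.20 and 10.22 on KC3, and 10.98, 11.28 and 11.14 on KC4. KC4 was above and KC3 below all others, and all 3 highly metastatic lines were lower than KC4 by 0.39 to 0.9 (KC3 minus KC4 -0.9, adjusted p = 3.29e-05). These differences kept their direction and an adjusted p under 0.05 with median centring. Ndufa12, an accessory subunit of the same arm, read 12.40, 12.45 and 12.37 on the KC1 arrays, 12.07, 12.06 and 12.08 on KC2, 12.76, 12.69 and 12.75 on KC3, and 12.81, 12.68 and 12.81 on KC4. KC2 was lowest and KC1 next, whereas KC3 and KC4 overlapped (KC2 minus KC4 -0.7, adjusted p = 2.27e-06).

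Of the nuclear core subunits, which together hold the flavin and iron-sulfur centres, 6 were measured: Ndufs1, Ndufs3, Ndufs7, Ndufs8, Ndufv1 and Ndufv2. Ndufv1, which binds NADH and the flavin, read 11.52, 11.37 and 11.38 on the KC1 arrays, 11.72, 11.91 and 11.81 on KC2, 12.27, 12.36 and 12.04 on KC3, and 11.73, 11.49 and 11.64 on KC4. KC3 lay above all other arrays, and KC1 minus KC3 was -0.8 (SE 0.0956, adjusted p = 0.000174). At an adjusted p under 0.05 and any size of difference, 4 of the 6 core subunits were lower in KC1 than in KC2 and 4 of 6 lower in KC1 than in KC3, with medians of -0.29 and -0.3, and 0 were higher in either comparison. The shares over all genes were 12.3% lower and 14.1% higher in KC1 minus KC2, and 16.6% each way in KC1 minus KC3. The 29 accessory subunits split in both, with 5 higher and 4 lower in KC1 minus KC2 (median 0.04) and 7 higher and 6 lower in KC1 minus KC3 (median 0.03). With arrays centred on their medians, 0 of 6 core subunits passed in KC1 minus KC2 (median -0.26) and 4 of 6 were lower in KC1 minus KC3 (median -0.51). Under that scaling 21.5% of all genes were lower in KC1 minus KC3. The difference between core and accessory subunits was not tested.

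Complex I also held members that hardly moved or were dim. Ndufb11, a subunit of the membrane arm, had the narrowest range of its bright members, with 12.5 ± 0.05 for KC1, 12.36 ± 0.08 for KC2, 12.35 ± 0.13 for KC3 and 12.38 ± 0.08 for KC4 (SD, n = 3 each). Ndufa4 and its hypoxia-induced paralog Ndufa4l2 were placed in complex I by their symbols, although the product of Ndufa4 is now counted with complex IV. Ndufa4l2 was above the floor on all 12 arrays but below the all-gene median, with 5.54 ± 0.87 for KC1, 4.99 ± 0.45 for KC2, 4.62 ± 0.23 for KC3 and 5.55 ± 0.29 for KC4, and the KC1 arrays spread over more than the difference between lines (F test adjusted p = 0.212). The single-gene probe set of Ndufb4 was dim, with line means of 5.54 to 6.15, whereas a probe set shared by Ndufb4 and related copies read 11.76, 11.9, 11.81 and 12.13 in KC1, KC2, KC3 and KC4, so the value used for this member may not be that of its main transcript. Among genes outside the 81 that match the rule, Ndufs6, Ndufa11, Ndufb4b, Ndufb4c and Cox7b were not analysed here, for want of a probe set with 1 annotated gene.

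Complex II, succinate dehydrogenase, feeds electrons from the citric acid cycle into coenzyme Q and is encoded entirely in the nucleus. Sdha, the flavoprotein that oxidises succinate, read 10.93, 10.96 and 11 on the KC1 arrays, 10.67, 10.94 and 10.69 on KC2, 11.30, 11.35 and 11.07 on KC3, and 11.42, 11.09 and 11.15 on KC4. KC2 lay below KC3 and KC4 without overlap and was lower than KC4 by a log2 difference of -0.46 (adjusted p = 0.00909). Sdhb, the iron-sulfur subunit, read 11.99, 11.92 and 11.88 on the KC1 arrays, 11.53, 11.73 and 11.49 on KC2, 11.87, 11.92 and 11.70 on KC3, and 12.15, 11.96 and 12.09 on KC4. Its KC2 arrays were low but overlapped with KC3, and KC2 minus KC4 was -0.48 (adjusted p = 0.00141).

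The membrane anchors of complex II went different ways from these. Sdhc read 11.93, 11.74 and 11.82 on the KC1 arrays, 11.65, 12.02 and 11.97 on KC2, 11.79, 11.83 and 11.80 on KC3, and 11.89, 11.84 and 11.85 on KC4. The spreads of KC1 and KC2 took in all arrays of KC3 and KC4, and the F test had an adjusted p of 0.924. Sdhd read 11.18, 11.29 and 11.16 on the KC1 arrays, 10.85, 11.36 and 11.36 on KC2, 10.85, 10.83 and 10.47 on KC3, and 11.40, 11.28 and 11.24 on KC4. KC3 was low and touched the lowest KC2 array, and KC3 minus KC4 was -0.59 (adjusted p = 0.0136). With arrays centred on their medians that difference was -0.41 and missed the threshold (adjusted p = 0.19), as did Sdha in KC2 minus KC4 (-0.52, adjusted p = 0.0555), while Sdhb kept it (-0.55, adjusted p = 0.0264).

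In complex IV, cytochrome c oxidase, the members called were both tissue forms of low signal. Cox7a1, the heart and skeletal muscle form of subunit 7A, read 6.89, 7.03 and 6.77 on the KC1 arrays, 6.41, 6.63 and 6.69 on KC2, 4.94, 6.11 and 5.87 on KC3, and 7.52, 7.35 and 7.35 on KC4. KC4 lay above and KC3 below all arrays of the other lines, and KC1 lay above KC2. The difference KC3 minus KC4 was -1.76 (3.4-fold, SE 0.255, adjusted p = 0.000578), KC1 minus KC3 was 1.26 (adjusted p = 0.00418), and the highly metastatic lines minus KC4 were at -1.03 (SE 0.208, adjusted p = 0.00422). Without KC3 replicate 1, the lowest array, KC1 minus KC3 was 0.91 and the class difference -0.92, and without KC4 replicate 1 the class difference was -0.98.

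Cox6b2, the testis form of subunit 6B, read 6.22, 6.52 and 6.15 on the KC1 arrays, 6.30, 5.89 and 5.62 on KC2, 5.55, 4.85 and 4.70 on KC3, and 6.77, 6.88 and 6.83 on KC4. KC4 was again above and KC3 below all other arrays, whereas KC1 and KC2 overlapped. The difference KC3 minus KC4 was -1.79 (3.46-fold, SE 0.236, adjusted p = 0.000328), KC1 minus KC3 was 1.26 (adjusted p = 0.00266), and the highly metastatic lines minus KC4 were at -1.07 (SE 0.193, adjusted p = 0.00224). Both genes lay below the median level of all genes and have 1 probe set each. With a floor of 64 in place of 16, Cox6b2 in KC3 minus KC4 was -0.83 with an adjusted p of 0.000332, short of the minimum of 1, and in KC1 minus KC3 it was 0.3 with an adjusted p of 0.0657, and the class differences were -0.69 for Cox6b2 and -0.9 for Cox7a1, short of the minimum of 1.

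Few markers of muscle were called between the lines, and those that were did not share a line order. Of 7 muscle genes measured 2 were called, Acta1, with line means of 9.12 for KC1, 6.28 for KC2, 4.91 for KC3 and 10.29 for KC4, and Tnnt2, with 11.36, 10.83, 12.15 and 12.57. The summed signal of the list ran from 3330 to 3660 for KC1, 2110 to 2760 for KC2, 4580 to 5170 for KC3 and 7460 to 7970 for KC4, and Tnnt2 made up 72.3% to 94.1% of it on these arrays. Acta1 had the line order of Cox7a1, highest in KC4 and lowest in KC3, whereas Tnnt2 was highest in KC4 and lowest in KC2. Myh6, which defines heart muscle, was at the floor on 10 of 12 arrays. The part of muscle gene expression in the Cox7a1 and Cox6b2 results was not tested.

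The other tissue forms showed no line pattern past the F test. Cox7b2, a testis form, was at the floor on all 12 arrays, and Cox8b, a heart and muscle form, on 9 of 12. Cox4i2, the form of subunit 4 known from lung, had line means of 7.35, 7.52, 7.22 and 7.59 in KC1, KC2, KC3 and KC4. Cox6a2, a heart and muscle form, had 7.43, 7.09, 6.95 and 7.37, and Cox8c, a testis form, had 9.44, 9.95, 9.28 and 9.36, with F test adjusted p-values of 0.536, 0.263 and 0.272 in that order of genes. The 3 KC2 arrays of Cox8c lay above all others, but the KC3 and KC4 arrays were spread widely.

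Among the general forms of complex IV subunits, the widest ranges of line means were those of Cox7a2l (0.75), Cox8a (0.73) and Cox5a (0.48), chosen after their values were seen. Cox7a2 and Cox6b1, with narrower ranges of 0.44 and 0.31, were lowest in KC3, below all other arrays (F test adjusted p = 0.00267 and 0.00288). Under median centring KC3 minus KC4 was -0.09 and -0.13 (adjusted p = 0.711 and 0.512 in limma). Their differences between KC3 and KC1 or KC2 also missed the threshold under that scaling. Cox7a2l, a relative of subunit 7A that joins complexes III and IV into supercomplexes, read 12.17, 12.12 and 12.10 on the KC1 arrays, 12.45, 12.59 and 12.55 on KC2, 12.07, 12.04 and 12.21 on KC3, and 11.76, 11.83 and 11.73 on KC4. KC2 lay above and KC4 below all other arrays, and all 3 highly metastatic lines were higher than KC4, with a class difference of 0.48 (SE 0.0452, adjusted p = 4.34e-05) that was 0.51 under median centring. Cox8a, the general form of subunit 8, read 11.92, 11.86 and 11.56 on the KC1 arrays, 12.45, 12.75 and 12.34 on KC2, 12.60, 12.61 and 12.27 on KC3, and 12.14, 11.71 and 11.94 on KC4. KC2 and KC3 were high and did not overlap with KC1 and KC4 (KC1 minus KC2 -0.73, adjusted p = 0.00805, or -0.7 and 0.0575 under median centring).

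Cox5a, a subunit on the matrix side of complex IV, read 13.77, 13.74 and 13.77 on the KC1 arrays, 13.44, 13.28 and 13.37 on KC2, 13.68, 13.62 and 13.89 on KC3, and 13.87, 13.71 and 13.95 on KC4. Only KC2 stood apart, below all 9 other arrays, with KC2 minus KC4 at -0.48 and -0.55 after median centring. Cox4i1, the general form of subunit 4, had the narrowest range of the bright members of this complex, with 13.25 ± 0.08 for KC1, 13.25 ± 0.12 for KC2, 13.27 ± 0.09 for KC3 and 13.48 ± 0.13 for KC4 (SD, n = 3 each; F test adjusted p = 0.117).

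Complex V had no member called at a difference of 1. Its pair with the widest ranges were Atp5md and Atp5mpl, small membrane subunits of the ATP synthase. Atp5md read 10.52, 10.73 and 10.70 on the KC1 arrays, 11.99, 10.77 and 11.47 on KC2, 10.39, 10.53 and 10.79 on KC3, and 10.68, 10.96 and 10.68 on KC4. Its KC2 arrays were spread over more than 1 log2 unit and overlapped with KC3 and KC4 (F test adjusted p = 0.0773). Atp5mpl read 12.17, 12.11 and 12.14 on the KC1 arrays, 12.47, 12.46 and 12.44 on KC2, 11.79, 11.77 and 11.87 on KC3, and 12.20, 12.23 and 12.28 on KC4. Its 4 lines did not overlap, and KC2 minus KC3 was 0.65 (SE 0.0364, adjusted p = 1.14e-06), or 0.4 under median centring (adjusted p = 0.00782).

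Several subunits of complex V were highest in KC2. At an adjusted p under 0.05 and any size, 7 of 17 were higher in KC2 than in KC4 (background 18%) and 1 was lower (background 17.5%), and in KC1 minus KC2, 8 of 17 were lower (background 12.3%) and 0 higher (background 14.1%). Atp5j, coupling factor 6 of the stalk, read 12.76, 12.59 and 12.53 on the KC1 arrays, 13.00, 13.21 and 13.04 on KC2, 12.64, 12.51 and 12.47 on KC3, and 12.78, 12.60 and 12.73 on KC4. Its KC2 arrays lay above all others, as did those of Atp5e, Atp5j2, Atp5k, Atp5mpl and Atp5o, which encode the epsilon, f, e, j and OSCP subunits. The differences KC2 minus KC4 of the 7 ran from 0.22 for Atp5mpl to 0.48 for Atp5g2. They depended on the scaling. With arrays centred on their medians, 0 of 17 were higher (background 12%) and 1 was lower (background 16%) in KC2 minus KC4 in limma. The median over complex V was then 0.14 in place of 0.21. With quantile normalization 7 were higher (background 17.7%) and 3 lower (background 18.4%). In KC1 minus KC2, 3 of 17 were lower under median centring (background 6.78%) and 8 with quantile normalization (background 13.1%).

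The c ring of ATP synthase, which turns as protons pass, is built from 1 mature protein encoded by Atp5g1, Atp5g2 and Atp5g3. All 3 were above the floor on all arrays. Atp5g1 read 10.75, 10.62 and 10.58 on the KC1 arrays, 10.50, 10.81 and 10.79 on KC2, 11.38, 11.32 and 11.06 on KC3, and 11.30, 11.17 and 11.27 on KC4. KC1 and KC2 were low and did not overlap with KC3 and KC4 (KC1 minus KC4 -0.6, adjusted p = 0.00272, and KC2 minus KC4 -0.55, adjusted p = 0.0029). Atp5g2 read 12.27, 12.21 and 12.11 on the KC1 arrays, 12.66, 12.91 and 12.80 on KC2, 12.78, 12.78 and 12.66 on KC3, and 12.42, 12.22 and 12.29 on KC4. KC2 and KC3 were high and overlapped each other, while KC1 and KC4 were low (KC2 minus KC4 0.48, adjusted p = 0.000964). Atp5g3 overlapped in all lines, with means of 13.59, 13.73, 13.61 and 13.57 and an F test adjusted p of 0.61. Atp5l, the g subunit, had the narrowest range among bright complex V members, with 12.24 ± 0.08, 12.15 ± 0.1, 12.2 ± 0.02 and 12.23 ± 0.1 in KC1, KC2, KC3 and KC4 (SD, n = 3 each).

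Counted without a minimum size, differences at an adjusted p under 0.05 were more often downward than upward in KC1 and in the highly metastatic lines together against KC4. The class comparison had 5 members higher (background 16.8%) and 23 lower (background 15.3%), with 14 of the lower ones in complex I. KC1 minus KC4 had 3 higher (background 13.5%) and 17 lower (background 12.2%), 12 of these in complex I, 4 in complex III and 1 in complex V. KC2 minus KC4 had 17 higher (background 18%) and 22 lower (background 17.5%), and KC3 minus KC4 had 8 higher (background 17.8%) and 17 lower (background 16%). Between highly metastatic lines, KC1 minus KC2 had 8 higher (background 14.1%) and 21 lower (background 12.3%), KC1 minus KC3 had 14 higher and 18 lower (background 16.6% each), and KC2 minus KC3 had 23 higher (background 19.1%) and 15 lower (background 18.8%).

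These counts moved with the scaling of the arrays. Centring each array on its median gave 1 higher (background 13.3%) and 9 lower (10.8%) in the class comparison. KC1 minus KC4 had 0 higher (background 8.5%) and 7 lower (8.52%), and KC2 minus KC4 had 2 (12%) and 13 (16%). KC3 minus KC4 had 8 higher (background 20.5%) and 6 lower (8.84%), and KC1 minus KC2 had 4 (10.3%) and 5 (6.78%). KC1 minus KC3 had 4 higher (background 9.05%) and 19 lower (21.5%), and KC2 minus KC3 had 5 (9.93%) and 20 (24.2%). The lower counts in KC1 minus KC3 and KC2 minus KC3 were near the shares over all genes. That scaling shifted the median difference of all genes to 0.16 in KC3 minus KC4, against -0.02 as deposited, to -0.21 in KC1 minus KC3, against 0, and to -0.2 in KC2 minus KC3, against 0.05. The majority direction in KC3 minus KC4 and in KC2 minus KC3 thus turned between the deposited and the median-centred scale, and no direction is given for the members as a group there. The median difference over all members was between -0.09 and 0.03 in the 7 comparisons as deposited, and the class median was -0.16 in complex I, -0.25 in complex II, -0.17 in complex III, 0 in complex IV and 0.06 in complex V.

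Some members were lower than KC4 at an adjusted p under 0.05, at any size, in each of the 3 highly metastatic lines. They were Ndufa5, Ndufb7, Ndufb2 and Ndufa1 in complex I and Uqcrfs1 in complex III, and Cox7a2l of complex IV was higher in all 3. None of these 6 reached the minimum difference of 1, and the share of all genes that passed in all 3 lines is not given here. With arrays centred on their medians, only Ndufa5 and Ndufb2 of the 6 stayed under 0.05 in all 3 lines. In limma Cox7a2l missed in KC1 (adjusted p = 0.0578) and Ndufb7 in KC1 and KC3 (0.0734 and 0.146). Ndufa1 and Uqcrfs1 missed in all 3, with Ndufa1 turning to 0.05 in KC3 minus KC4. Ndufb7, an accessory subunit on the intermembrane side, read 11.61, 11.22 and 11.31 on the KC1 arrays, 11.17, 11.57 and 11.38 on KC2, 11.52, 11.46 and 11.08 on KC3, and 12.19, 11.85 and 11.99 on KC4. All KC4 arrays lay above the 9 others, and the class difference was -0.64 (1.56-fold, SE 0.131, adjusted p = 0.00467), or -0.61 (adjusted p = 0.0342) with arrays centred on their medians. These comparisons share the KC4 arrays. With the line as a random block, the fit that takes the 4 lines as the units, 0 of 81 members were called at any size in the class comparison in limma, with 7 at an unadjusted p under 0.05 and 429 of all genes called.

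Each line also had members on which its 3 arrays lay wholly above or below the 9 arrays of the other lines. KC1 had 0 above (background 4.06%) and 4 below (background 2.64%): Ndufa10, Ndufs1, Ndufs3 and Ndufv2, all of complex I. KC2 had 14 above (background 8.92%), 6 of them in complex V, and 8 below (background 8.72%), among them Uqcrq, Ndufs5, Ndufs4 and Cox5a. KC3 had 4 above (background 10.7%), Ndufb9, Ndufv1, Uqcrc2 and Uqcrq, and 11 below (background 8.44%), among them Uqcrh, Ndufv3, Ndufb10, Cox6b1, Cox7a2 and Atp5mpl. KC4 had 8 above (background 6.9%), among them Cox6b2, Cox7a1, Ndufa5 and Ndufb7, and 2 below (background 6.99%), Cox7a2l and Ndufa6.

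**Figure D3:**
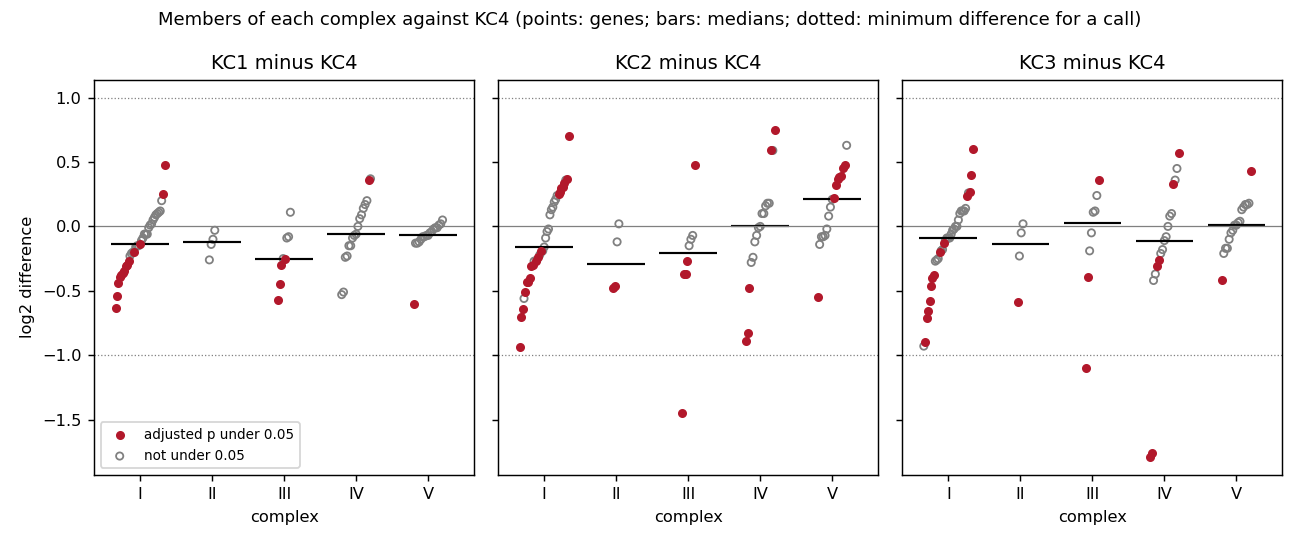
Log2 difference of each member in KC1, KC2 and KC3 from KC4, one point per member, grouped by complex, with lines at 1 and -1. Most points lie within 1 of no difference, and those beyond it at an adjusted p under 0.05 are Uqcrq in KC2 and Uqcrh, Cox6b2 and Cox7a1 in KC3, all lower than in KC4.

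As a summary of each complex, the log2 signal of every member was taken relative to its own mean over the 12 arrays and averaged over the complex on each array. Complex I was at -0.036 ± 0.033 for KC1, -0.006 ± 0.044 for KC2, -0.044 ± 0.066 for KC3 and 0.086 ± 0.03 for KC4 (SD, n = 3 each). The KC4 arrays were the 3 highest for complex I, at 0.052 to 0.109, whereas with arrays centred on their medians KC3 stood at 0.113 and KC4 at 0.066. Complex II was at 0.021 ± 0.023, -0.108 ± 0.17, -0.063 ± 0.12 and 0.151 ± 0.092 in KC1, KC2, KC3 and KC4, and complex III at -0.076 ± 0.067, -0.128 ± 0.108, 0.046 ± 0.094 and 0.159 ± 0.123. For complex II the KC4 arrays, at 0.079 to 0.254, lay above all others (0.094 for KC3 and 0.13 for KC4 under median centring), and for complex III the lines overlapped.

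Complex IV was lowest in KC3, at -0.146 ± 0.041, against 0.029 ± 0.065 in KC1, 0.051 ± 0.054 in KC2 and 0.067 ± 0.055 in KC4, with the KC3 arrays below all others. This average leans on the dim tissue forms Cox6b2 (-0.469, -1.171 and -1.323 on the KC3 arrays) and Cox7a1 (-1.687, -0.519 and -0.761). They lay furthest below their own means there, and the average without them was not taken. Over all genes the KC3 average was -0.053 ± 0.06. Complex V was highest in KC2, at 0.14 ± 0.057, against -0.105 ± 0.059 in KC1, -0.013 ± 0.033 in KC3 and -0.022 ± 0.07 in KC4, with the KC2 arrays above all others. With arrays centred on their medians, complex IV in KC3 was at 0.011 and complex V in KC2 at 0.054, against 0.144 in KC3, so neither of these positions held under that scaling. No test was made of these averages, since the members were chosen by their symbols with earlier results known.

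**Figure D4:**
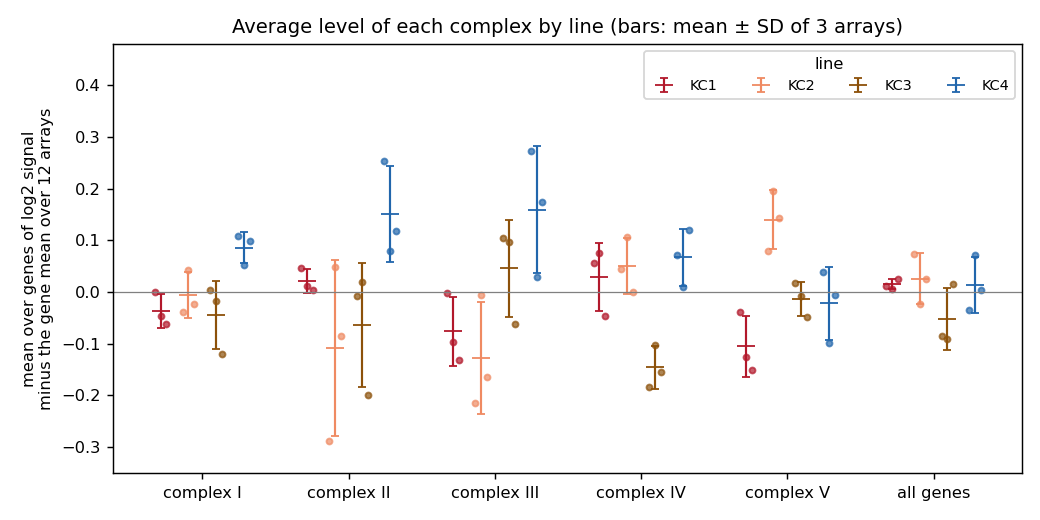
Mean log2 signal of the members of each complex on each array, relative to each member's own mean over the 12 arrays, with lines in the order KC1, KC2, KC3 and KC4, points for arrays and bars for means with SD over 3 arrays; the last group is the same average over all genes. All averages lie within 0.3 log2 units of 0, complex V stands highest in KC2 and complex IV lowest in KC3, positions that median centring did not keep. The complex IV average in KC3 leans on the dim tissue forms Cox6b2 and Cox7a1.

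The stretches of 250 bases before the annotated start of the called members that have one in the RefSeq promoter table (assembly GRCm38.p6) are shown because these members differed most. They lie at chr4:116075071-116075320 on the minus strand for Uqcrh, chr17:31519865-31520114 on the plus strand for Ndufv3, chr7:4753095-4753344 on the minus strand for Cox6b2 and chr7:30183921-30184170 on the plus strand for Cox7a1, each upstream of its gene and given 5′ to 3′ on the gene's strand. Capitals mark the single match found, to the ETS motif in Uqcrh.
Uqcrh: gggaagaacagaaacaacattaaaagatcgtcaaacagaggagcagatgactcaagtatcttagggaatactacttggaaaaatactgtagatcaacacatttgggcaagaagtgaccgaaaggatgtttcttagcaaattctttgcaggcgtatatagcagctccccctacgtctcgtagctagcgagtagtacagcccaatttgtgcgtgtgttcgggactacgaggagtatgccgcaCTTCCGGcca
Ndufv3: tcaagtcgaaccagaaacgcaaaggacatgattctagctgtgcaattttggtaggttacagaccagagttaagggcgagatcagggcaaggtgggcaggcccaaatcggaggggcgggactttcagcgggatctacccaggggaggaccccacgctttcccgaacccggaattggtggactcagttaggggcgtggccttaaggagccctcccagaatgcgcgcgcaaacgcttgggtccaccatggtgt
Cox6b2: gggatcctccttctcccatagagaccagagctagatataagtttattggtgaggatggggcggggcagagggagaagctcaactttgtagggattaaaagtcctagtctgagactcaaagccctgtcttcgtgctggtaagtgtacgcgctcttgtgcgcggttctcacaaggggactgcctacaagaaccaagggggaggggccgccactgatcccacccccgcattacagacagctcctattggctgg
Cox7a1: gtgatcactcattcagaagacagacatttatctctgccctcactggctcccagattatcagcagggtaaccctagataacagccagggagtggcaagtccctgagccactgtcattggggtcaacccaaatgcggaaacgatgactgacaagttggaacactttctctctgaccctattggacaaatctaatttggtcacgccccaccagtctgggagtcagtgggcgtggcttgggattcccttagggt
The 3 motifs known from promoters of respiratory genes that were searched in these windows on both strands are GCGCA, any base and then GCGC for NRF1, CCGGAAG for ETS factors such as GABP, and AAGATGGCG for YY1.

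Of the 81 members, 66 had such a window. The NRF1 letters were found in 11 of 66 (16.7%), against 4.23% of the windows of 27025 genes, and the ETS letters in 12 of 66 (18.2%), against 7.83%. The YY1 letters were found in 1 of 66 (1.52%), Atp5j, against 0.71%. By complex, the NRF1 letters were in 4 of 31 windows of complex I, 2 of 3 of complex II, 0 of 5 of complex III, 1 of 12 of complex IV and 4 of 15 of complex V. Sdhd, Atp5h and Cox6a1 held both NRF1 and ETS letters. A match is a description of the letters only.

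The members lay on 19 chromosomes, with at most 8 on any one. Of 26 symbols listed for mitochondrially encoded subunits, only 1 was measured with a single-gene probe set, ND5, the large proton-pumping core subunit of complex I. Its line means were 11.67, 12.25, 11.29 and 11.39 in KC1, KC2, KC3 and KC4, with KC2 minus KC4 at 0.87, and it was called in 0 comparisons at a difference of 1.

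Genes around the respiratory chain were taken from lists chosen with earlier results of these data known. Among cytochrome c and 7 other subunits or partners outside the symbol rule, 0 of 8 were called in any comparison at a difference of 1. At any size 2 to 5 passed in a comparison, where the shares over all genes were 12.2% to 19.1% in each direction. Of 17 assembly factors of complex I, 0 were called in the class comparison (3 higher and 4 lower at any size, where the shares over all genes were 16.8% and 15.3%). At a difference of 1, 2 were lower in KC2 minus KC4 (background 4.46%) and 1 was higher in KC3 minus KC4 (background 3.52%). In KC2 minus KC3, 3 were lower (background 4.94%). Ndufaf4, an assembly factor of complex I, had line means of 10, 9.3, 11.75 and 10.58 in KC1, KC2, KC3 and KC4, with KC2 minus KC3 at -2.45 (SE 0.14, adjusted p = 1.23e-06) and KC3 minus KC4 at 1.17 (adjusted p = 0.000176). Ecsit, another factor of complex I assembly, was lower in KC2 than in KC3 by a log2 difference of -1.57, and Foxred1 by -1.09. These 3 assembly factors were lowest in KC2 and highest in KC3, the order of Uqcrq and the reverse of that of Uqcrh and Ndufv3.

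Of 32 assembly factors of complexes II to V measured, 1 was lower (background 2.57%) and 0 higher (background 2.87%) in the class comparison. Cmc2, which serves complex IV biogenesis, was at 9.54, 9.28, 9.27 and 10.73 in KC1, KC2, KC3 and KC4, so all highly metastatic lines were lower than KC4 (class -1.37, SE 0.0487, adjusted p = 1.21e-07). Sco2, a copper chaperone of complex IV, was higher in KC3 than in KC4 (1.49, adjusted p = 0.00046). Cox18, which inserts a complex IV core subunit into the membrane, was lower than in KC3 both in KC1 (-1.09) and in KC2 (-1.13). Lyrm7, a factor for the insertion of the Rieske protein into complex III, was higher in KC2 than in KC4 (1.2, SE 0.384, adjusted p = 0.0364), at levels below the all-gene median, and with a floor of 64 this was 0.22 (adjusted p = 0.0785).

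Of 19 regulators of mitochondrial biogenesis, 1 was lower (background 2.57%) and 0 higher (background 2.87%) in the class comparison. Ppargc1b, a coactivator of respiratory genes, had line means of 4.65, 7.73, 5.69 and 7.67 in KC1, KC2, KC3 and KC4, with KC1 minus KC4 at -3.02 (SE 0.43, adjusted p = 0.000774) and KC3 minus KC4 at -1.98 (adjusted p = 0.0061). The KC1 and KC3 means lie near the floor, which sets the size of these differences: with a floor of 64, added after seeing the data, they were -1.67 (adjusted p = 0.00285) and -1.42 (adjusted p = 0.0051). Ppargc1a, its better known relative, had 6.95, 5.9, 5.79 and 6.9, with KC3 minus KC4 at -1.11 (adjusted p = 0.0162). With a floor of 64 this was -0.81 (adjusted p = 0.00559), short of the minimum of 1. Nrip1, a corepressor of oxidative metabolism, was higher than in KC4 in KC1 (1.14) and in KC2 (1.05). Pprc1, a coactivator related to Ppargc1a, was lower than in KC3 in KC1 (-1.04) and KC2 (-1.12), while Nrf1, Gabpa and Yy1, whose motifs were searched above, were not called in any comparison.

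Of 21 citric acid cycle and pyruvate dehydrogenase genes measured, 0 were called in the class comparison at a difference of 1, and 3 were higher (background 16.8%) and 12 lower (background 15.3%) at any size (median -0.28). Ogdh, a subunit of the 2-oxoglutarate dehydrogenase complex, was lower in KC2 than in KC4 (-1.24, adjusted p = 7.72e-06). Pdk1, a kinase that inhibits pyruvate dehydrogenase, had 12.24, 12.66, 10.83 and 11.24 in KC1, KC2, KC3 and KC4, with KC2 minus KC4 at 1.42 (adjusted p = 2.56e-05). Pdk2, another such kinase, was lower than in KC4 in KC2 (-1.05) and KC3 (-1.23). Of 9 adenine nucleotide and proton carriers, Slc25a5 was lower in KC2 than in KC4 (-1.09, adjusted p = 7.61e-08) and Slc25a4 lower in KC3 than in KC4 (-1.07, adjusted p = 3.7e-06), both of which exchange ADP for ATP.

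Of 12 genes of coenzyme Q synthesis, Coq10b, a coenzyme Q binding protein, had the widest range, with 10.48, 9.34, 11.6 and 10.96 in KC1, KC2, KC3 and KC4 and KC2 minus KC4 at -1.61 (adjusted p = 1.43e-06). Coq3 was lower in KC2 than in KC3 (-1.1) and Coq8b higher (1.28). Among 7 genes of other routes to coenzyme Q, Prodh, proline dehydrogenase, was higher in KC3 than in KC4 (1.37, adjusted p = 7.56e-07), and Sqor, which oxidises sulfide, was higher in KC2 than in KC3 (1.19, adjusted p = 4.33e-06). Of 76 mitochondrial ribosomal protein genes, 0 were called in the class comparison at a difference of 1, and 9 were higher (background 16.8%) and 27 lower (background 15.3%) at any size. The lines did not go the same way. KC1 minus KC4 had 3 higher (background 13.5%) and 29 lower (12.2%), and KC2 minus KC4 had 15 (18%) and 37 (17.5%). KC3 minus KC4 had 29 higher (background 17.8%) and 16 lower (16%). Counts under median centring were not made for this list. In KC2 minus KC3 1 was higher (background 5.9%) and 5 lower (background 4.94%) at a difference of 1. Among the lower ones were Mrps22 (-1.21) and Mrps27 (-1.2), and Mrpl18 was higher (1.23).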

How the data were processed

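The 12 Affymetrix arrays, of 1 colour each, held RNA from the 4 lines. The deposited intensity values are linear, and no source used here names their software; their means after trimming 2% at each end were 500 on every array, as a scaling of arrays to 1 common target gives. Of 45101 probe sets, 64 controls were left out; the platform annotation gave 1 gene for 34945, several for 932 and none for 9160, and only the first kind was used. Signals were floored at 16, log2 was taken from these deposited intensities, and the probe set with the highest mean stood for its gene. limma 3.58.1 in R 4.3.3 (lmFit, eBayes) was fitted to 18193 genes with 1 coefficient per line, and p-values were Benjamini-Hochberg adjusted over all genes; the script was tested on simulated data. Members named by rule were those called, the 2 widest of a complex with none called, the narrowest bright member of each complex, complex II and the tissue or paralog forms; the other members named were chosen after their values were seen; of other lists, up to 4 called genes with the widest range were eligible. Members and lists were chosen with earlier results of these data known. Alternatives were another floor, a pseudocount, probe set averaging, quantile or median scaling, a brightness filter, trend and robust options, minimum differences, and fits without an array or a line, with a replicate block or with the line as a random block. The number of arrays limits the precision.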

Additional observations from a re-analysis of the deposited data

How the results depend on the processing

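Of the 211 differences called at any size over the members and comparisons, 96 kept their call with arrays centred on their medians, 173 with the mean of all probe sets, 205 with quantile normalization, 200 with the replicate block and 183 to 203 without single arrays; 0 turned. Counts at a difference of 1 changed as follows. In the class comparison, with 2 calls in the report, a floor of 64, a pseudocount of 16, the brighter 50% of genes and the line as a random block each gave 0, leaving out line KC3 gave 1, a minimum of 0.58 gave 4 and no minimum 28. In KC1 minus KC4 (0) the last 2 settings gave 2 and 20, in KC2 minus KC4 (1) 9 and 39, in KC3 minus KC4 (3) 9 and 25, in KC1 minus KC2 (0) 4 and 29, in KC1 minus KC3 (3) 8 and 32, and in KC2 minus KC3 (3) 11 and 38. KC2 minus KC4 had 0 calls with the mean of probe sets and 2 with median centring. KC3 minus KC4 had 1 among the brighter genes and 2 with median centring, without Uqcrh (-0.92), or with a floor of 64, without Cox6b2 (-0.83). KC2 minus KC3 had 4 with quantile normalization, Ndufb10 (1.02) being added, and under median centring 3, with Ndufs5 (-1.01) in and Ndufv3 (0.84) out. KC1 minus KC3 had 1 among the brighter genes, 1 with a floor of 64, and 5 with median centring (3 higher and 2 lower). The count of the F test was 27 with median centring.

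Without single arrays the counts ran from 1 to 2 in the class comparison (1 without KC3 replicate 1 or KC4 replicate 1, Cox7a1 falling short of the minimum), 0 to 0 in KC1 minus KC4, 1 to 2 in KC2 minus KC4 (2 without KC2 replicate 1 or KC4 replicate 3), 3 to 3 in KC3 minus KC4, 0 to 1 in KC1 minus KC2 (1 without KC2 replicate 2), 2 to 3 in KC1 minus KC3, 3 to 4 in KC2 minus KC3 and 47 to 53 in the F test. Complex II in KC1 ran from -0.006 to 0.044 (0.021 in the report). With median centring complex I was at -0.087 in KC1, -0.092 in KC2 and 0.113 in KC3, complex II at -0.03 in KC1 and 0.094 in KC3, complex III at 0.202 in KC3, complex IV at -0.035 in KC2 and 0.011 in KC3, and complex V at 0.054 in KC2 and 0.144 in KC3; complex V in KC3 was at -0.057 with the mean of probe sets. The cause of these changes was not tested. A fit with the replicate number as a block gave 2, 0, 1, 3, 0, 3 and 3 calls in the 7 comparisons, in the order of the report, and 49 in the F test. The numbers do not pair the arrays: over 18 same-numbered pairs the correlation of deviations ran from -0.32 to 0.31, with 3 over 0.1. Dim members such as Cox6b2 and Cox7a1 lie where the floor sets the size of a difference.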

Other observations

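Some genes beside the called members differed with them and others did not. In KC2 minus KC3, where Uqcrq was at -1.69, its close neighbours Zcchc10 and Aff4 were at -1.34 and -0.54, and Gdf9 was at -0.29 (adjusted p = 0.126). The rest of its neighbours, Leap2, Shroom1 and Sowaha, were dim and at 0.16, 0.18 and 0. In that comparison 19.1% of all genes were higher and 18.8% lower at an adjusted p under 0.05 and any size. Uqcrh was at 1.57 there, with Rad54l at 1.11 but Lrrc41 at -0.34. Ndufv3 was at 1.08, while its neighbours Pknox1, Wdr4 and U2af1 were at -1.27, -0.85 and -0.71, and Slc37a1, also nearby, was at 0.44 (adjusted p = 0.00594). In KC3 minus KC4, Cox7a1 was at -1.76 and Zfp82 nearby at 1.44 (adjusted p = 6.88e-05). The neighbours were taken from the order of genes in the RefSeq table, 3 on each side, and those named here were chosen after their values were seen.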
